A study of Mus musculus with 6 samples.

Results

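The cells described here are the tumor cells of cluster 5, a group in which the immediate-early genes stood higher than in the rest of the tumor. Members were the cells that the authors' deposited annotation calls tumor cells and places in cluster number 5, which gave 3561 of 29638 tumor cells and of 58794 annotated cells. No cell of that cluster carried another cell type name. The tumors came from H22, a murine hepatocellular carcinoma (HCC) line, grown first as ascites that were pooled and then injected into the liver of wild type male C57BL/6J mice, bought at 8 weeks of age. The 3 control mice were housed without stressors, the 3 stress mice went through chronic unpredictable mild stress (2 changing stressors a day), and both groups carried the same tumor cells. By the paper's account, tumor cells were implanted after the stress protocol and its behavioral evaluation. Stress changes given below thus compare previously stressed mice with control mice. Each mouse gave 1 single-cell library, made from fresh tissue that was broken up into single cells, and levels are counts of unique molecular identifiers (UMIs, tags that mark each captured RNA molecule) summed over the cells of a mouse and scaled to the same total in each (CPM). Cluster 5 held 1045, 431 and 611 cells in control mice 1, 2 and 3 and 654, 403 and 417 cells in stress mice 1, 2 and 3, with 10340369 to 22313413 UMIs per mouse.

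Immediate-early genes are the genes a cell switches on first after a signal, without the need for new protein. Kinase cascades of the MAPK family phosphorylate factors that already sit at their promoters, among them SRF with its ELK partners and CREB, and the products fall into transcription factors of the AP-1, EGR, NR4A and KLF families and into feedback proteins that soon shut the response down (DUSP phosphatases, the RNA-decay factor ZFP36). In liver and in tumors they answer growth factors, cytokines, heat, stress hormones and the handling of tissue.

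The promoters of 4 of these genes are printed, with letters that match known sites of EGR, CREB and ATF, or SRF factors in capitals. Each runs 250 bases up to the RefSeq start of its gene (build GRCm38.p6) and is written along the gene's own strand. Fosb and Zfp36 were chosen as leading genes of cluster 5 that hold an EGR site, Dusp1 as a leading gene that holds a cAMP response element (CRE, bound by CREB and ATF factors), and Dusp5 as a feedback gene higher in stress mice that holds CArG boxes, the elements bound by SRF. Fosb lies at chr7:19310046-19310295 (minus strand), and its EGR site begins 50 bases before the start. Zfp36 lies at chr7:28379229-28379478 (minus strand), with an EGR site beginning 105 bases and a CArG box beginning 58 bases before the start. Dusp1 lies at chr17:26508473-26508722 (minus strand), with a CRE beginning 143 bases before the start. Dusp5 lies at chr19:53528895-53529144 (plus strand), with 2 adjoining CArG boxes beginning 82 and 72 bases before the start.
Fosb: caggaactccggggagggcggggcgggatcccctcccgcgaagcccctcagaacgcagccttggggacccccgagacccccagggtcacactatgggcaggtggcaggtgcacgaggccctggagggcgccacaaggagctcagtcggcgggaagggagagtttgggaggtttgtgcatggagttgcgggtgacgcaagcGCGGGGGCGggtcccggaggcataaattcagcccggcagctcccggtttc
Zfp36: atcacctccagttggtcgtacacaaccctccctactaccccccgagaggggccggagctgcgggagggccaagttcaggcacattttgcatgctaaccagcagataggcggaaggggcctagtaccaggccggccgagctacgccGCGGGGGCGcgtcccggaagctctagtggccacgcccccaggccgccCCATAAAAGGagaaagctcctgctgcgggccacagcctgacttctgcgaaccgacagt
Dusp1: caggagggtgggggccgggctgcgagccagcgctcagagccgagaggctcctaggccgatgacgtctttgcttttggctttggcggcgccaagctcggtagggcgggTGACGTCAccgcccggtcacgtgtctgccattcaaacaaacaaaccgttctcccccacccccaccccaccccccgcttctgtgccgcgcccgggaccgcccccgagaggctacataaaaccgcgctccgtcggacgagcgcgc
Dusp5: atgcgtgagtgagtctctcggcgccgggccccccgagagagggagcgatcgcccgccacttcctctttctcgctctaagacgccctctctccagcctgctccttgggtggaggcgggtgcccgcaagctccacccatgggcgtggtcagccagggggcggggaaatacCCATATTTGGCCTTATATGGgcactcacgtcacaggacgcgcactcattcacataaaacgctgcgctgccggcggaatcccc

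Of the 47 immediate-early genes listed for this work, 37 had such a promoter in the table. Egr1, Egr3, Fosl1, Klf10 and Myc were among those without one and were not searched. The EGR site, GCGNGGGCG on either strand, was found in 12 of the 37 (32.4%), against 5.33% of 27025 genes. The CRE, TGACGTCA, was found in 7 (18.9%), against 1.77% of all genes, and the CArG box in 3 (8.11%), against 1.62%. The AP-1 site, TGANTCA, was found in 2 (5.41%), against 7.82%. A match of letters describes the sequence and does not show that a factor was bound there.

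The label was first held against the 5 markers given for the cluster. Fosb, Atf3 and Egr1 (transcription factors of the AP-1, ATF and EGR families) and Ogn (osteoglycin, a small leucine-rich proteoglycan of the extracellular matrix) were each higher in cluster 5 than in any other tumor cluster in 6 of 6 mice. Mt4, a metallothionein best known from stratified epithelia, was the highest in 5 of 6 mice. Because clusters are drawn from the expression of these same cells, all comparisons of cluster 5 with other tumor cells are descriptions and carry no test. Of 8190 genes with a mean of at least 10 CPM in cluster 5, 3811 (46.5%) were higher than in the other tumor cells of the same mouse in all 6 mice, 2001 (24.4%) were lower in all 6, and 86 (1.05%) were the highest of the 10 tumor clusters in all 6. The median log2 ratio of these genes, on the log2(CPM + 1) scale, was 0.13.

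Fosb, the marker with the steadiest level, stood at 904, 959 and 946 CPM in cluster 5 of control mice 1, 2 and 3 and at 954, 681 and 1219 CPM in stress mice 1, 2 and 3. In the other tumor cells of the same mice it stood at 316, 360, 311, 279, 210 and 323 CPM. No mouse's other tumor cells reached the lowest cluster 5 value, and the mean log2 ratio was 1.65 ± 0.18 (SD, n = 6 mice). Atf3 stood at 422, 467 and 424 CPM in control mice and at 476, 513 and 761 CPM in stress mice, against 153 to 192 CPM in other tumor cells (log2 ratio 1.56 ± 0.24). Egr1 stood at 2133, 1965 and 2013 CPM in control mice and at 1305, 1382 and 2483 CPM in stress mice, against 449 to 946 CPM in other tumor cells (log2 ratio 1.44 ± 0.36). Fos, the partner of JUN in the AP-1 factor, stood at 2243, 1688 and 2222 CPM in control mice and at 1423, 934 and 1821 CPM in stress mice. Its level in other tumor cells was 260 to 912 CPM (log2 ratio 1.64 ± 0.40), so the stress mouse with the lowest cluster 5 level lay close to the highest value outside the cluster.

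Ogn and Mt4 behaved otherwise. Ogn stood at 99.2, 5.51 and 78.1 CPM in cluster 5 of control mice 1, 2 and 3 and at 44.1, 2.95 and 3.26 CPM in stress mice 1, 2 and 3. Mt4 stood at 809, 14.3 and 589 CPM in control mice and at 106, 17.3 and 23.2 CPM in stress mice. Both genes were high in control mice 1 and 3 and low in control mouse 2 and stress mice 2 and 3, with stress mouse 1 below the high controls and above the other 3 mice, and control mice 1 and 3 and stress mouse 1 were also above the rest in the other tumor cells (Ogn 10.4, 6.24 and 3.36 CPM against 0.247 to 0.54 CPM, Mt4 246, 127 and 30.9 CPM against 4.31 to 7.42 CPM). Their log2 ratios, 2.56 ± 0.90 for Ogn and 1.69 ± 0.44 for Mt4, were positive in every mouse. At full depth an Ogn UMI was found in 727 of 3561 cluster 5 cells (20.4%), in 3.73% of other tumor cells, in 4.69% of the 128 hepatic stellate cells and in 0.385% of endothelial cells. After cells were thinned to 2000 UMIs each, the shares were 6.49% (231 of 3558 cells), 0.750%, 3.17% and 0.143%. By mouse, the thinned share in cluster 5 ran from 0.480% to 11.9%. Cluster 9 came next for Ogn, at 17.6 CPM on average against 38.9 CPM in cluster 5.

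**Figure D1:**
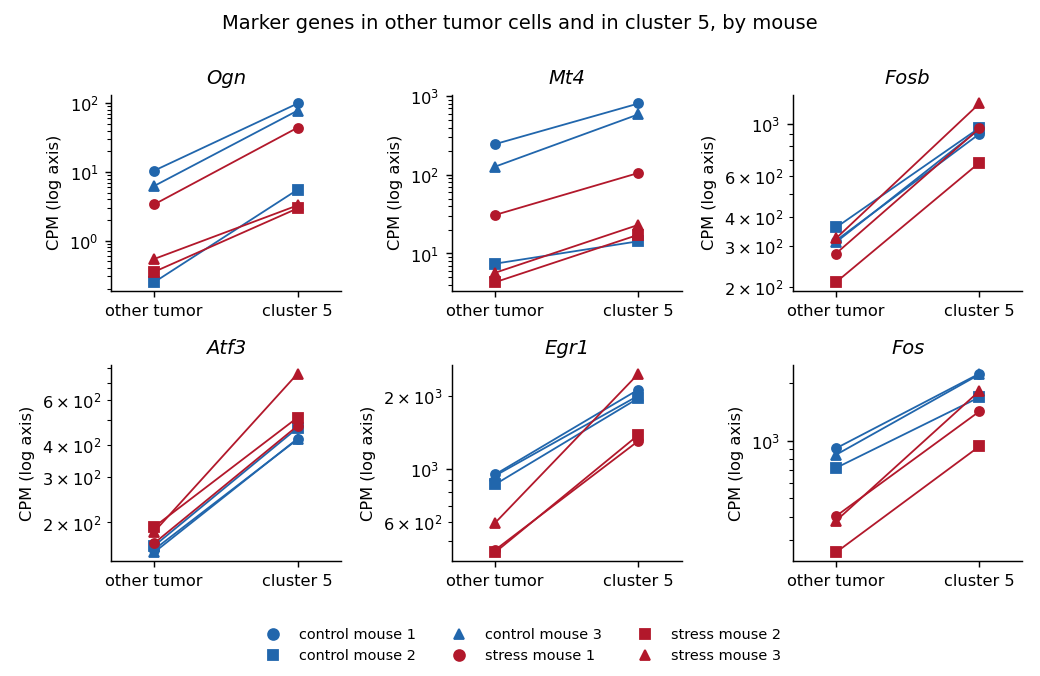
Levels of Ogn, Mt4, Fosb, Atf3, Egr1 and Fos (CPM, log axes) in other tumor cells (left) and in cluster 5 (right), with 1 line per mouse, control in blue and stress in red. All lines rise toward cluster 5, and for Ogn and Mt4 control mice 1 and 3 and stress mouse 1 lie above the other 3 mice at both ends.

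Genes beside or related to Mt4 and Ogn had other values. Mt4 (chr8:94137197-94139031, GRCm38) lies in the metallothionein cluster, beside Mt3 (at most 0.218 CPM in cluster 5) and, farther on, Mt2 and Mt1, the metal-binding proteins that most cells make. Mt1 stood at 4167 to 5973 CPM in cluster 5, with a log2 ratio of -0.08 ± 0.15, and Mt2 at 2137 to 3924 CPM, with a log2 ratio of 0.03 ± 0.11. Ogn (chr13:49608046-49624501) lies beside Omd and Aspn, which code for proteoglycans of the same family and stood at means of 0.940 and 0.411 CPM. Of the 10 listed proteoglycans, Ogn alone reached 10 CPM in cluster 5.

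The immediate-early transcription factors were raised nearly as a whole. Of 20 listed, 18 were higher in cluster 5 in all 6 mice, against 46.5% of the 8190 genes. Among the 18, 7 (Fos, Fosb, Junb, Atf3, Egr1, Egr3 and Klf6) were the highest of the 10 tumor clusters in all 6 mice, against 1.05%. The median log2 ratio of the list was 0.97. Egr3 stood at 43.3, 31.2 and 33.7 CPM in control mice and at 34.5, 31.4 and 66.1 CPM in stress mice, against 7.39 to 13.6 CPM outside the cluster (log2 ratio 1.91 ± 0.21). The JUN partners of FOS had lower ratios, 0.98 ± 0.28 for Jun, 0.96 ± 0.22 for Junb and 0.60 ± 0.09 for Jund. Myc, a growth regulator, was higher in 5 of 6 mice (log2 ratio 0.34 ± 0.32). Fosl1, a FOS relative that follows sustained MAPK signalling, was the only listed factor with a negative mean (-0.19 ± 0.16), and it was higher in 1 of 6 mice.

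The feedback and effector genes followed. Of 27 listed, 25 reached 10 CPM in cluster 5, and all 25 were higher there in all 6 mice. Among these, 5 (Dusp1, Ccn1, Trib1, Ier2 and Sgk1) were the highest of the clusters in all 6. The shares over the 8190 genes were 46.5% and 1.05%. The median log2 ratio of the 25 was 0.80. Zfp36, which speeds the decay of immediate-early and cytokine mRNAs, stood at 250, 106 and 261 CPM in control mice and at 201, 122 and 270 CPM in stress mice, against 38.8 to 80.5 CPM in other tumor cells. Dusp1, a phosphatase that inactivates MAP kinases, stood at 792, 292 and 710 CPM in control mice and at 549, 343 and 366 CPM in stress mice, against 105 to 304 CPM. Dusp1 and Zfp36 were lowest in control mouse 2 among the controls, as Ogn and Mt4 were. The kinases and factors that act upstream differed less. Among 14 listed MAPK and SRF pathway genes, 11 were higher in all 6 mice, against 46.5% of the 8190 genes. Their median log2 ratio was 0.33, against 0.13.

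Summed over the 47 immediate-early genes, cluster 5 held 17622, 14757 and 16773 CPM in control mice 1, 2 and 3 and 16224, 14632 and 20652 CPM in stress mice 1, 2 and 3. The other tumor cells held 7502 to 9085 CPM, and the mean log2 ratio was 1.01 ± 0.18. In every mouse cluster 5 was the highest tumor cluster. Cluster 4 (mean 11362 CPM), cluster 17 (11297 CPM), cluster 6 (10242 CPM) and cluster 3 (9964 CPM) came next, and their ranges over mice overlapped, whereas clusters 9 (3574 CPM) and 21 (927 CPM) were lowest. Cluster 17 differed from the rest in depth, with a median of 1852 UMIs per cell against 25391 in cluster 5, and 13.2% of its cells were called doublets against 0.842% in cluster 5.

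**Figure D2:**
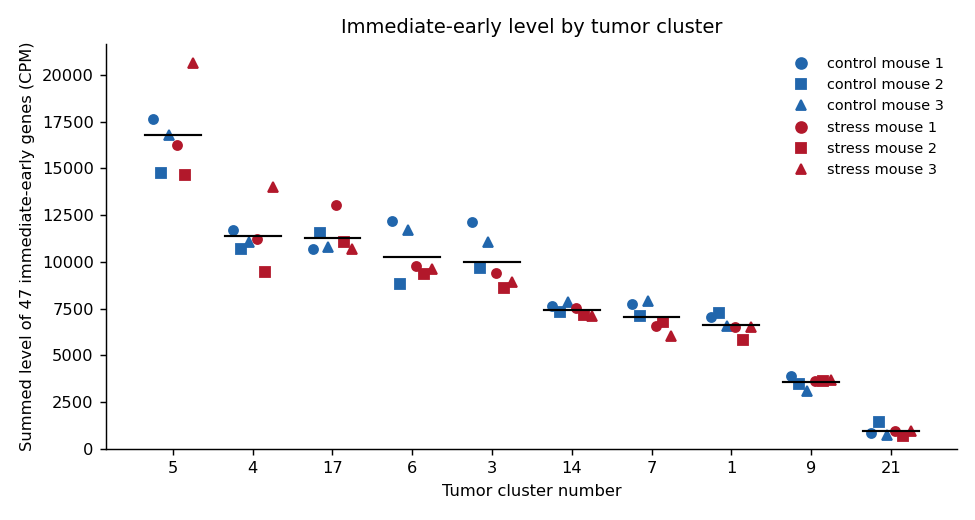
Summed level of the 47 immediate-early genes (CPM) in each tumor cluster, with 1 point per mouse (control blue, stress red) and a black line at the mean of 6 mice, ordered by that mean. All 6 points of cluster 5, between 14632 and 20652 CPM, lie above every other point.

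How many of the genes were detected in the same cell was counted next. In cells thinned to 2000 UMIs, cluster 5 cells had a UMI for 3.65 of 6 core genes (Fos, Fosb, Egr1, Atf3, Zfp36 and Dusp1) on average, and 80.1% had at least 3 of the 6. By mouse that share ran from 67.2% to 89.7%. It was 60.1% in cluster 4, 52.7% in cluster 17, 47.8% in cluster 3, 42.1% in cluster 6, 21.5% to 24.3% in clusters 1, 7 and 14, 4.0% in cluster 9 and 0.297% in cluster 21. The share of cells with at least 3 of the genes thus differed between tumor clusters at equal depth, and thinning left out 3 cells of cluster 5 and 602 other tumor cells. Most of the latter were of cluster 17, of which 532 of 1126 cells were deep enough to be kept. The 6 core genes were all among the leading genes of cluster 5, so a high share there was built in. Whether they occurred together beyond each gene's own detection was not tested.

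The 20 genes with the highest ratio also included genes outside the immediate-early lists, of which those described here were picked after their values were seen. Fn1 (fibronectin) stood at 805, 1070 and 1144 CPM in cluster 5 of control mice and at 1208, 2090 and 2709 CPM in stress mice, against 271 to 1076 CPM in other tumor cells (log2 ratio 1.56 ± 0.21). Spp1 (osteopontin, a secreted integrin ligand) stood at 1175, 1767 and 1469 CPM in control mice and at 1761, 2393 and 1861 CPM in stress mice, against 355 to 933 CPM (log2 ratio 1.48 ± 0.24). Timp2 (an inhibitor of matrix metalloproteinases) and Itga5 (the integrin chain that pairs to bind fibronectin) had log2 ratios of 1.45 and 1.38. S100a4, a calcium-binding protein linked to cell motility, was uneven, at 860, 251 and 791 CPM in control mice and 453, 276 and 294 CPM in stress mice. Gbp2, an interferon-induced GTPase, had a log2 ratio of 1.53, and other leading genes were Casp12, Adgrl3, Tcp11l2 and, from the immediate-early list, Egr2.

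Cell cycle genes were lower in cluster 5 than in the pooled other tumor cells. Of 12 listed S phase genes that reached 10 CPM, 10 were lower in cluster 5 in all 6 mice (median log2 ratio -1.40). So were 11 of 11 listed genes of G2 and mitosis (median -2.01). Over the 8190 genes, 24.4% were lower in all 6. Mki67, the gene of the proliferation marker Ki-67, stood at 3.99, 20.3 and 4.73 CPM in cluster 5 of control mice and at 6.84, 15.9 and 8.69 CPM in stress mice, against 37.0 to 57.7 CPM in other tumor cells. Ube2c, which serves the anaphase-promoting complex, stood at 27.0, 93.0 and 32.5 CPM in control mice and at 36.6, 58.5 and 31.9 CPM in stress mice, against 156 to 373 CPM. Control mouse 2 and stress mouse 2 had the highest level of both genes within cluster 5, and no mouse's cluster 5 reached any mouse's pooled other tumor cells. Low levels of these genes were shared with other tumor clusters, since Mki67 stood at means of 8.31, 7.08 and 5.16 CPM in clusters 3, 6 and 7, below the 10.1 CPM of cluster 5, and at 66.4, 105 and 83.5 CPM in clusters 1, 4 and 14. Cluster 5 was the lowest tumor cluster for Mki67 in 0 of 6 mice and for Ube2c in 4 of 6. The genes with the lowest ratio were Pclaf (-2.88, a partner of PCNA), Birc5 (-2.78, survivin) and Rrm2 (-2.59, a ribonucleotide reductase subunit).

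Other stress-related lists were mixed, and are to be read against the 46.5% of all genes that were higher and the 24.4% that were lower in all 6 mice. Of 13 heat shock genes, 7 were higher in cluster 5 in all 6 mice, led by the inducible Dnajb1 (1.27), Hspa1b (1.26) and Hspa1a (1.19), while the mitochondrial chaperones Hspd1 and Hspe1 were lower in all 6 (-0.38 each). Of 10 genes of the ATF4 response, 5 were lower and 2 higher in all 6 mice, and the serine synthesis genes Psat1 (-1.13) and Phgdh (-0.77) were among the lower ones. Of 9 glucocorticoid response genes, all were higher in all 6 mice, with a median of 0.60, and 3 of these (Sgk1, Dusp1 and Errfi1) also stand in the immediate-early list. The NF-kB list had 5 of 10 higher and 1 lower, the p53 list 5 higher and 3 lower of 10, the hypoxia and glycolysis list 6 higher and 4 lower of 16, and the unfolded protein response 2 higher and 3 lower of 10.

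**Figure D3:**
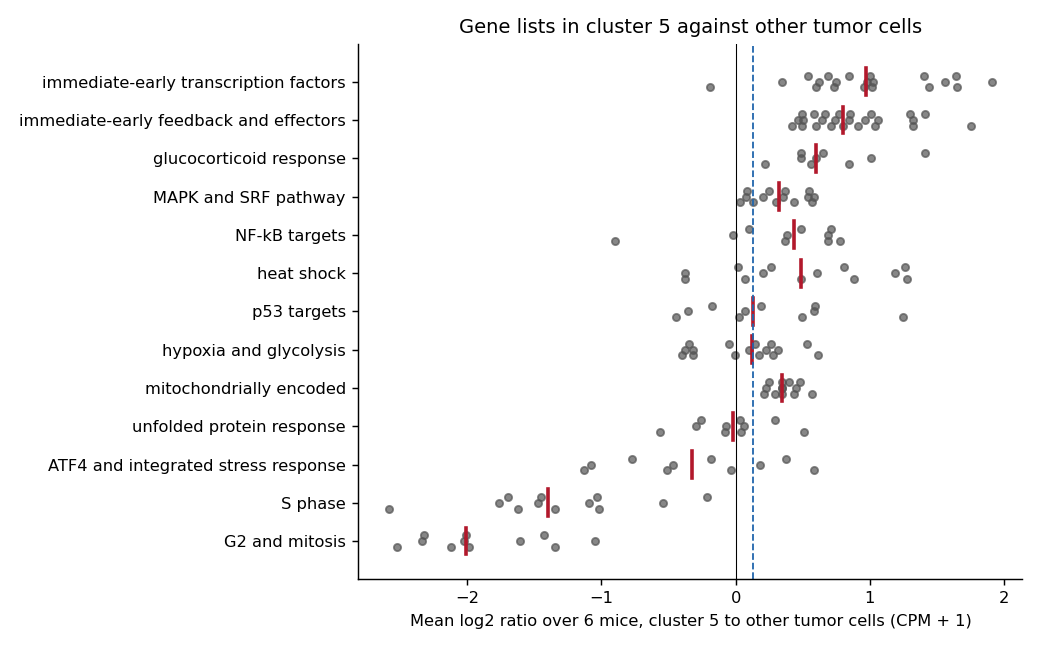
Mean log2 ratio of cluster 5 to other tumor cells over 6 mice for each gene of 13 lists with at least 10 CPM in cluster 5 (grey points), with the list median in red, the median of all such genes (0.13) as a dashed blue line and 0 as a black line. The immediate-early lists lie to the right and the S phase and G2 and mitosis lists to the left.

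RNA measures also differed between cluster 5 and the pooled other tumor cells. The nuclear RNAs Malat1 and Neat1 were higher in cluster 5 in all 6 mice (log2 ratios 0.92 ± 0.14 and 1.01 ± 0.16). So were 12 of 13 mitochondrially encoded genes (median 0.35), against 46.5% of the 8190 genes. The median mitochondrial share of a cell's UMIs was 4.56% to 7.31% by mouse in cluster 5 and 3.44% to 5.53% in other tumor cells, and it was higher in cluster 5 of each mouse. Median UMIs per cell were lower in cluster 5 in each mouse, at 20394 to 30574.5 against 22338 to 33173. Among single tumor clusters, clusters 9 and 21 had a higher median mitochondrial share (7.55% and 6.20%, against 5.58% in cluster 5), and clusters 6, 9, 17 and 21 had fewer UMIs per cell. The part of these measures in the levels above was not tested. Thinning all cells to the same depth gave a summed immediate-early ratio of 1.06.

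Of 14 listed epithelial and oncofetal genes of tumor identity, 6 reached 10 CPM in cluster 5. Among these, 4 were higher there in all 6 mice and 1 was lower, against 46.5% and 24.4% of the 8190 genes. Epcam, an epithelial adhesion gene, stood at 141 to 213 CPM in cluster 5, and Krt18, a keratin of simple epithelia, at 391 to 885 CPM. Afp, the oncofetal alpha-fetoprotein, was lower in cluster 5 in 6 of 6 mice (log2 ratio -0.47 ± 0.12), Cdh1 and Gpc3 had means of 0.243 and 0.233 CPM, and H19 and Igf2 had 0 UMIs there. Summed markers of other cell types were low in cluster 5. The 7 endothelial markers summed to 25.1 to 43.3 CPM, against 21.1 to 39.9 CPM. The 9 myeloid markers summed to 21.3 to 124 CPM, against 19.5 to 78.4 CPM, and stress mouse 3 was the highest in both. The sum of the 8 stellate and fibroblast markers, though not each marker, was higher in cluster 5 in 6 of 6 mice. It was 6.90, 7.45 and 3.10 CPM in control and 9.0, 17.9 and 13.6 CPM in stress mice, against 1.85 to 4.64 and 4.91 to 10.1 CPM in other tumor cells. Most of this sum was Col1a2, a collagen chain (mean 6.92 against 3.06 CPM), Lrat had 0 UMIs, and the part of such RNA in the levels of Ogn, Fn1 and Timp2 was not tested. The 11 hepatocyte markers summed to at most 2.44 CPM in cluster 5, against 0.590 to 2.31 CPM, and the 5 lymphoid markers to at most 3.99 CPM, against 0.788 to 4.86 CPM. The 5 erythroid markers summed to at most 2.51 CPM, and to at most 2.30 CPM in other tumor cells except in control mouse 2 (36.5 CPM against 1.35 CPM in its cluster 5). Only 1 barcode was found in cluster 5 of more than 1 library, and 386 were shared among all annotated cells.

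Stress and control mice were compared next. Cluster 5 made up 11.3% ± 3.43 of tumor cells in control mice (SD, n = 3) and 12.6% ± 2.33 in stress mice, at 14.2%, 7.51% and 12.3% against 15.1%, 10.4% and 12.5%. The groups overlapped, and the difference of 1.32 percentage points was smaller than the spread between mice (exact two-sided permutation p = 0.6, where 3 against 3 mice cannot go below 0.1). Without control mouse 2 the difference was -0.584 points. Median UMIs per cell in cluster 5 were 24396 ± 4549 in control and 28290 ± 2327 in stress mice (exact permutation p = 0.3). The mitochondrial share was higher in stress mice, 6.85% ± 0.417 against 5.08% ± 0.550, with no overlap (exact permutation p = 0.1, the smallest possible). It was also higher in their other tumor cells, 5.2% against 3.89%. The summed immediate-early level differed by 0.06 on the log2 scale between the groups, less than the spread between mice, and its sign turned without control mouse 2 (-0.017) or stress mouse 3 (-0.085).

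In cluster 5 summed per mouse, edgeR's quasi-likelihood test called 152 of 13490 genes higher (1.13%) and 125 lower (0.927%) in stress mice at an adjusted p under 0.05. The groups of 3 mice did not overlap for 26.3% of the genes tested. The matrix headers name Cell Ranger 9.0.0 for the control and 7.1.0 for the stress libraries, so stress and counting version cannot be told apart in any of these changes. The calls also rested on the full set of mice, with 0 genes called when control mouse 1, control mouse 3, stress mouse 2 or stress mouse 3 was left out (1871 to 2410 at an unadjusted p under 0.05), 22 without stress mouse 1 and 2064 without control mouse 2.

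Of the 46 immediate-early genes tested for stress in cluster 5, 2 passed in edgeR, both higher, against 2.05% of all genes. At an unadjusted p under 0.05 there were 10 of the 46, against 22.4% of all genes. None of the 20 transcription factors passed the edgeR test (1 at an unadjusted p under 0.05, against 22.4% of all genes, and 0 by DESeq2), although Fos did with the replicate number as a block (-0.64, adjusted p = 0.0356), and their median log2 fold change was 0.01, against -0.02 over all genes. Of 26 feedback and effector genes tested, 2 rose and none fell (1.13% and 0.927% of all genes), with a median of 0.50. At an unadjusted p under 0.05 there were 9, and 8 of them were higher, against 10.4% of all genes higher. DESeq2 called 6 higher and 1 lower (3.6% and 3.59% of all genes). Dusp5, a nuclear phosphatase of ERK whose promoter is printed above, stood at 254, 262 and 214 CPM in control mice and at 382, 433 and 416 CPM in stress mice. The groups did not overlap, and its log2 fold change was 0.71 (SE 0.10, edgeR adjusted p = 0.0248). Ier5, an immediate-early gene that acts with heat shock factor HSF1, stood at 288, 266 and 295 CPM in control mice and at 465, 481 and 577 CPM in stress mice. This gave a log2 fold change of 0.79 (SE 0.13, edgeR adjusted p = 0.0296). Both genes also rose in other tumor cells, by 0.42 and 0.45.

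The markers of the cluster did not pass. The log2 fold change was -1.84 for Ogn (SE 1.19, edgeR adjusted p = 0.398) and -3.30 for Mt4 (SE 1.27, adjusted p = 0.185), and stress mouse 1 lay above control mouse 2 for both. Without stress mouse 1 the change of Ogn was -4.43 (adjusted p = 0.144), and over all alternatives it ran from -4.43 to -1.31. It was -0.02 for Fosb (adjusted p = 0.969), -0.30 for Egr1 (adjusted p = 0.497), -0.61 for Fos (adjusted p = 0.226) and 0.37 for Atf3 (adjusted p = 0.243), all by edgeR. The change of Mt4 passed without control mouse 2 (-3.85, adjusted p = 0.0151), and over all alternatives it ran from -4.67 to -2.66.

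Of 13 heat shock genes, 4 rose in cluster 5 and none fell, with a median log2 fold change of 0.68, against 1.13% and 0.927% of all genes, and DESeq2 called 7 higher, against 3.6% of all genes. In other tumor cells 3 of the 13 rose and 1 fell (12.1% and 9.6% of all genes), with a median of 0.37. None of the 13 passed the test of the difference between cluster 5 and other tumor cells. Hsp90aa1, the inducible cytosolic HSP90, stood at 1024, 1112 and 1008 CPM in control mice and at 1891, 1780 and 1850 CPM in stress mice. Its log2 fold change was 0.77 (SE 0.12, edgeR adjusted p = 0.0252). Hspa8 (0.68), the HSP40 co-chaperone Dnaja1 (0.91) and Hsph1 (0.79) also passed, with no overlap between the groups. Of 13 mitochondrially encoded genes, 5 rose (mt-Nd2, mt-Nd4l, mt-Nd5, mt-Nd6 and mt-Atp8), with a median of 0.63, in the same mice whose mitochondrial share was higher, and DESeq2 called 9 higher. By edgeR 8 of the 13 rose in other tumor cells, and no difference passed. Of 5 genes tested from the metallothionein list, 1 rose, the zinc exporter Slc30a1 (0.67), and none fell. Among 12 p53 targets none rose and 1 fell, Phlda3 (-0.85), with a list median of -0.12. Phlda3 also fell in other tumor cells, as the only p53 target that passed there. None of the 16 S phase, 16 G2 and mitosis, 9 glucocorticoid response, 17 hypoxia and glycolysis, 16 MAPK and SRF pathway, 12 NF-kB, 13 ATF4 or 10 unfolded protein response genes tested passed in either direction by edgeR. At an unadjusted p under 0.05 there were 11 of the hypoxia and glycolysis genes (2 higher, 9 lower), 4 of the NF-kB genes (all higher) and 0 to 2 of each other list, against 22.4% of all genes. DESeq2 called 6 hypoxia and glycolysis genes lower (Ldha, Pfkl, Pfkp, Bnip3, Pkm and Pdk1), 2 NF-kB genes higher (Tnfaip3 and Nfkb1) and 0 of the other lists. In other tumor cells 12 of 18 hypoxia and glycolysis genes tested fell by edgeR, against 9.6% of all genes, and no difference passed.

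The 10 genes with the largest rise by rule were Lars2, Cmss1, Gphn, Camk1d, Anxa11os, H2ac24, Lhfpl4, Cdk8, Pole and mt-Atp8, with log2 fold changes from 1.70 to 2.42. Lars2 (mitochondrial leucyl-tRNA synthetase) stood at 86.2, 143 and 80.1 CPM in control mice and at 351, 582 and 764 CPM in stress mice (SE 0.29, edgeR adjusted p = 0.0226). Lars2, Cmss1, Gphn, Cdk8, Camk1d and Gm19951 had been listed because earlier results showed them higher in stress libraries of every cell type, and all 6 rose here, which is no independent evidence. Pole, the catalytic subunit of DNA polymerase epsilon, stood at 5.11, 8.70 and 6.20 CPM in control mice and at 20.4, 22.3 and 26.8 CPM in stress mice. Its change was 1.77 on the log2 scale (SE 0.18, edgeR adjusted p = 0.0215).

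The 10 genes with the largest fall were Dapk1, Ryr3, Gapdhrt, Map7, Cdk2ap1rt, Ctla4, Eno1b, Plxdc2, Nudcd3 and Wdr89, with log2 fold changes from -2.19 to -1.46. Dapk1, a kinase that promotes cell death, stood at 48.6, 30.0 and 42.3 CPM in control mice and at 12.3, 8.41 and 6.15 CPM in stress mice (SE 0.31, edgeR adjusted p = 0.0245). Map7, a microtubule-associated protein, stood at 145, 92.9 and 121 CPM against 46.1, 39.0 and 29.6 CPM. Ctla4, known as an inhibitory receptor of T cells, was counted in these tumor cells at 84.7, 52.6 and 70.0 CPM against 24.0, 27.4 and 17.7 CPM. Gapdhrt, Cdk2ap1rt and Eno1b are copies nearly identical to Gapdh, Cdk2ap1 and Eno1, and H2ac24 is a histone of a large family, so counting can split their reads and their values are uncertain.

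**Figure D4:**
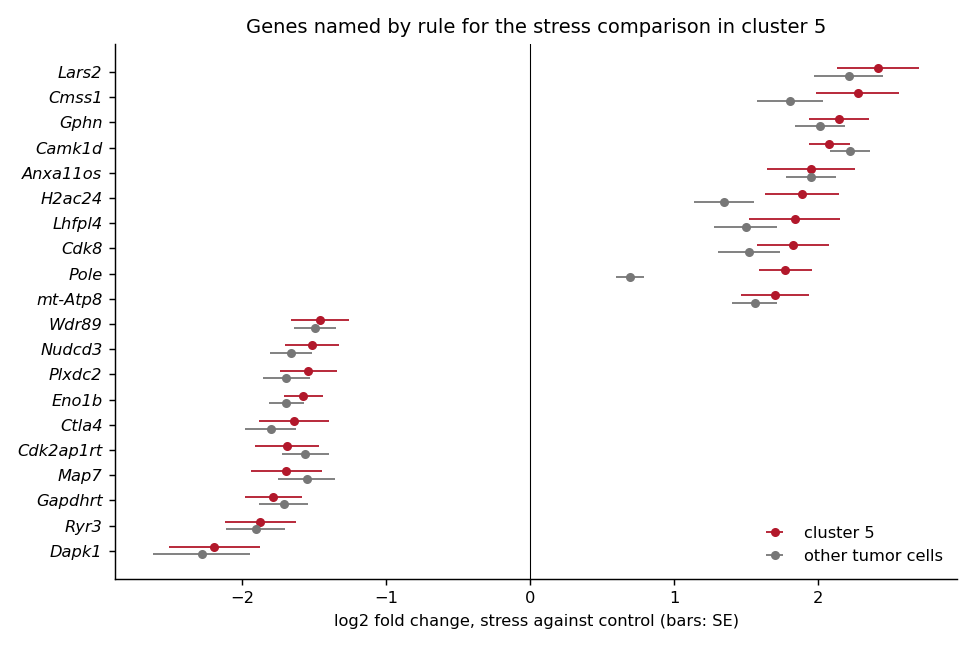
log2 fold change of stress against control mice (bars, SE) for the 20 genes named by rule, in cluster 5 (red) and in other tumor cells (grey). The signs are the same in both for all 20 genes, and Pole lies farthest apart, at 1.77 in cluster 5 and 0.69 in other tumor cells.

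Whether the stress change in cluster 5 differed from that in the pooled other tumor cells was tested by the difference of the log2 fold changes. The edgeR fit took both sums of each mouse, with the mouse as a term. The pool was not made up alike in both groups. Cluster 14 held means of 7.37% of tumor cells in control and 3.85% in stress mice, and cluster 17 held 2.93% and 5.34%. The part of this make-up in the differences was not tested. Of 17591 genes, 10 passed (0.0568%), 8 with a higher and 2 with a lower fold change in cluster 5. In the other tumor cells, whose sums held more cells, the stress test itself passed for 21.7% of 18596 genes. All 10 had an edgeR adjusted p of 0.0488, and DESeq2 called 126 genes, 120 of them higher. Leaving out control mouse 1, control mouse 3, stress mouse 1 or stress mouse 2 left 0 genes called (1022 to 1746 at an unadjusted p under 0.05), leaving out stress mouse 3 left 1, and leaving out control mouse 2 gave 381.

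Pole was the first, with a difference of 1.0 (SE 0.13), and its level in other tumor cells was 13.9, 17.2 and 14.6 CPM in control and 24.1, 29.8 and 27.6 CPM in stress mice. Gadd45b, an immediate-early gene of the growth arrest and MAPK response, stood at 27.5, 36.3 and 29.4 CPM in cluster 5 of control mice and at 60.4, 51.6 and 131 CPM in stress mice. In other tumor cells it stood at 23.2, 26.9 and 25.7 against 36.6, 26.7 and 60.4 CPM, and the difference was 0.64 (SE 0.10). Wee1, the kinase that holds back entry into mitosis, differed by 0.64 (SE 0.09), and Sox2, a stem cell transcription factor, by 0.58 (SE 0.09). Arl4d, a small GTPase, differed by 0.78 (SE 0.11) and fell in other tumor cells by 2.02 (edgeR adjusted p = 0.0435). Its level in cluster 5 was 161, 26.0 and 115 CPM in control and 55.3, 24.5 and 59.4 CPM in stress mice, where control mouse 2 lay among the stress mice.

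In other tumor cells, 3 of the 46 immediate-early genes tested rose under stress (12.1% of all genes did) and 4 fell (9.6% of all genes did), with a median of 0.017, and in cluster 5 the median over the 46 was 0.20. Fos and Egr1 were among the 4 that fell, by 1.37 (edgeR adjusted p = 0.00563) and 1.0 (adjusted p = 0.00445). Fos stood there at 912, 720 and 843 CPM in control and 402, 260 and 380 CPM in stress mice. Egr1 stood at 946, 860 and 934 against 459, 449 and 595 CPM, with no overlap in either. Detection of both genes was lower in stress mice in other cell types too. In thinned monocytes the share with a Fos UMI was 83.1%, 76.2% and 80.1% in control and 49.1%, 35.8% and 33.6% in stress mice. For Egr1 it was 65.1%, 50.8% and 55.0% in control and 29.3%, 12.0% and 19.6% in stress mice. The groups overlapped in hepatic stellate cells for both genes and in natural killer and T cells for Egr1. Compared with other tumor cells, the fold change in cluster 5 was higher by 0.67 for Fos (SE 0.11, edgeR adjusted p = 0.0652) and 0.57 for Egr1 (SE 0.12, adjusted p = 0.172). Neither difference passed. Both did pass with DESeq2, without a filter on low counts, against cluster 3 alone and without control mouse 2, and Fos also with RLE normalization and with the replicate block, and the adjusted p over all alternatives ran from 1.8e-13 to 0.210 for Fos and from 2.25e-10 to 0.564 for Egr1. Over the 46 immediate-early genes tested, the difference was positive for 40, with a median of 0.23 against -0.02 over all genes. Of the 46, 19 were higher at an unadjusted p under 0.05, against 4.31% of all genes, and 1 (Gadd45b) after adjustment. With single mice left out, the 19 became 16 to 26 (16 without stress mouse 3), and the median 0.13 to 0.34. Without a filter on low counts 32 of 47 were higher (median 0.28), and against cluster 6 alone 31 of 46 (median 0.42). Clusters were drawn on these genes across both groups, so a cell's immediate-early level also decided whether it was placed in cluster 5, and that selection cannot be told apart from a stress change that differs in cluster 5.

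**Figure D5:**
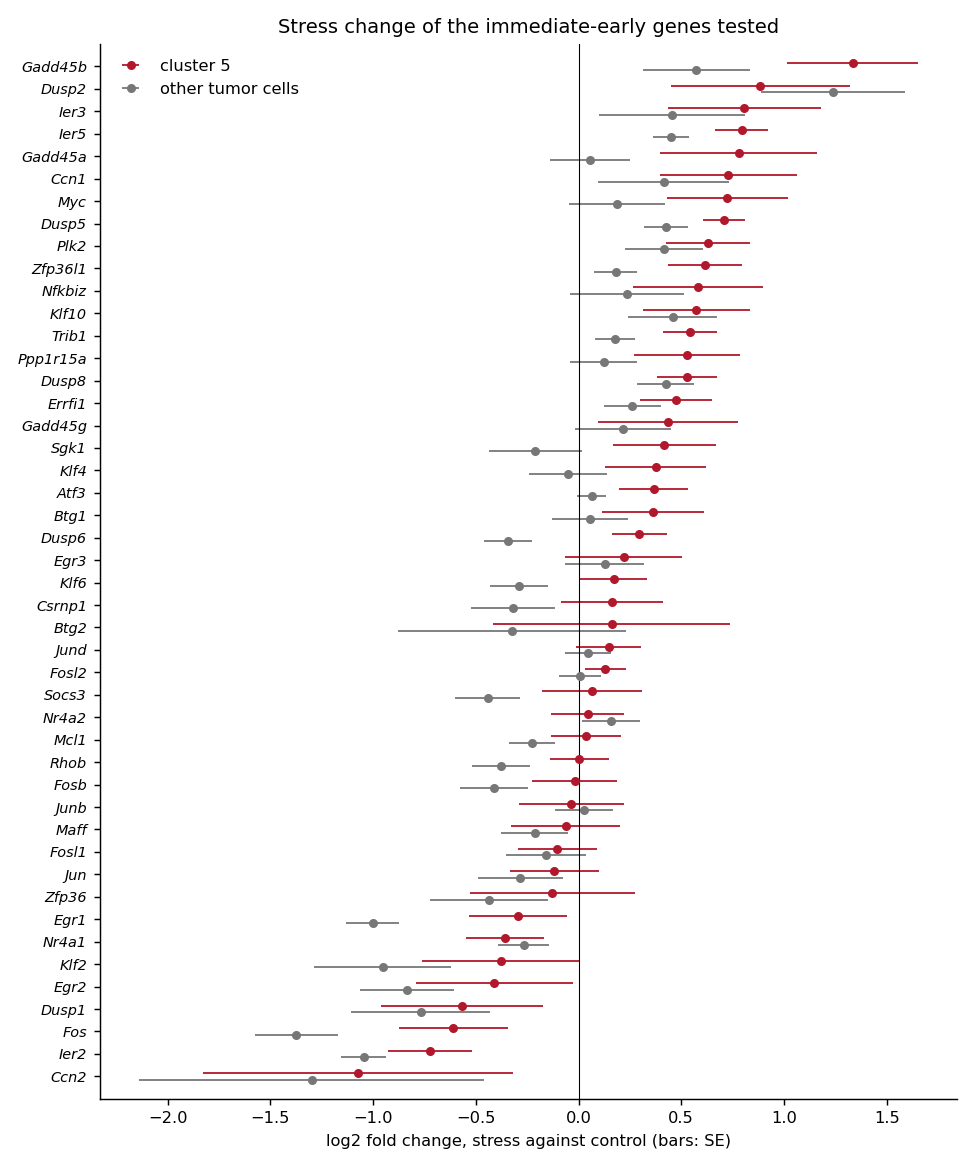
log2 fold change of stress against control mice (bars, SE) for the 46 immediate-early genes tested, ordered by their value in cluster 5 (red), with other tumor cells in grey. The red point lies to the right of the grey one for 42 of the 46 genes, with Fos at -0.61 in cluster 5 and -1.37 in other tumor cells.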

How the data were processed

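Tumors of 6 mice were profiled by 10x Genomics single-cell RNA sequencing. What the authors deposited were unnormalized counts of UMIs by gene for each cell, and a table with each cell's mouse, cluster and cell type. The submitters' processing notes name Cell Ranger, Seurat and mm10, and the matrix headers name Cell Ranger 9.0.0 (control) and 7.1.0 (stress). Clusters were the authors' own, made after doublet removal, a limit on mitochondrial UMIs, Harmony integration and graph clustering. UMI totals in the table differed from the matrices by at most 87 per cell, and the matrices were used.

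Counts were summed per mouse over cluster 5 and over other tumor cells and compared by the quasi-likelihood test of edgeR 4.0.16 (R 4.3.3), after TMM normalization and the filterByExpr filter on low counts. Calls were made at a Benjamini-Hochberg adjusted p under 0.05. SE is the log2 fold change divided by the root of the F statistic. Ratios used a pseudocount of 1 CPM and a minimum mean of 10 CPM. Single values were compared by exact permutation. Doublets were called with Scrublet in scanpy 1.11.5 and kept, except in an alternative. DESeq2 1.42.0, other normalization and filters, left-out mice, the replicate number as a block, equal cells per mouse and single comparator clusters were alternatives. Simulated counts with known changes were used to test that step. Python 3.11.15 was used, with numpy 2.4.6, scipy 1.17.1, pandas 2.3.3, anndata 0.12.19 and matplotlib 3.10.9. Promoters came from RefSeq and gene positions from GENCODE M21 (GRCm38).

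Genes named were the markers, members of 25 gene lists, the 20 with the highest ratio to other tumor cells among those higher in 6 of 6 mice, the 10 with the largest change in each direction under stress among those past the threshold with groups that did not overlap and a mean of at least 10 CPM, and, with the same minimum, the 5 with the largest difference of stress changes in each direction, in both cases without predicted genes. The genes with the lowest ratio and those named beyond these rules were chosen after their values were seen. The members and lists were chosen with earlier results of these data known. Replicates were separate mice given the same pooled tumor cells, and p-values measure the spread between 3 mice a group. Protein sequences were not used here, and 1 gene that the rule names is not reported here.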

Additional observations from a re-analysis of the deposited data

Results flagged for a closer look

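For 10 genes the change with stress differed between cluster 5 and the other tumor cells of the same mice, by the test of the difference itself (edgeR adjusted p = 0.0488 for each). The fold change was higher in cluster 5 for Pole (by 1.0 on the log2 scale), Arl4d (0.78), Gadd45b (0.64), Wee1 (0.64), Sox2 (0.58), Rassf8 (0.57), Pim1 (0.53) and Crim1 (0.45), and lower for Spint2 (-1.14) and Gm4117 (-0.85). Rassf8, Pim1, Crim1, Spint2 and Gm4117 fall outside the naming rule (by rank, by a mean under 10 CPM for Spint2, or as a predicted gene) and are given because the count is small. Pim1, a kinase induced by cytokines, stood at 75.9, 67.1 and 87.7 CPM in cluster 5 of control mice and at 174, 128 and 263 CPM in stress mice, while its other tumor cells went from 44.5 to 52.8 CPM to 60.4 to 109 CPM. Crim1, a membrane protein that binds BMPs, stood at 218, 209 and 234 CPM against 447, 381 and 468 CPM in cluster 5. Rassf8 stood at 121, 131 and 128 CPM against 192, 202 and 199 CPM in cluster 5, and at 83.5 to 90.7 CPM against 86.8 to 102 CPM in other tumor cells. Spint2, a protease inhibitor, was low in cluster 5, at 2.50 to 3.97 CPM in control and 2.71 to 5.61 CPM in stress mice, and these ranges overlapped. Gm4117 was high in control mice 1 and 3 (18.2 and 11.9 CPM) and at 4.06 to 5.81 CPM in the other 4 mice. The pool of other tumor cells was made up differently in control and stress mice, as given above, and the sizes depended on the comparator. Against cluster 3 alone the difference was 0.55 for Pole, 0.28 for Gadd45b, 0.31 for Wee1, 0.30 for Sox2, 0.31 for Rassf8, 0.06 for Pim1, 0.25 for Crim1, -0.39 for Spint2 and -0.51 for Gm4117, and against cluster 6 alone it was 0.35 for Pole and -0.52 for Spint2. Arl4d kept 0.65 and 1.04 against these clusters. The highest adjusted p of these genes under any alternative was between 0.210 (Wee1 and Arl4d) and 0.880 (Pim1).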

How the results depend on the processing

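For genes changed by stress in cluster 5, against 277 calls, DESeq2 gave 970, no filter on low counts 623 and the replicate number as a block 735, and leaving out 1 mouse gave 0 to 2064. RLE normalization (273), no called doublets (287), equal cells per mouse (218) and an absolute log2 fold change over 0.15 (277) stayed within 1.5 times. For the difference of stress changes, against 10 calls, DESeq2 gave 126, RLE normalization 19, no filter 447, the replicate block 29, cluster 3 as comparator 20, cluster 6 as comparator 10 and no called doublets 11, and leaving out 1 mouse gave 0 to 381. The cause of these shifts was not tested, and with a mouse left out fewer samples were fitted. The 277 and the 10 genes were all among those called with the block, whereas of the 10 genes DESeq2 called 8, the fit against cluster 3 called 1 and the fit against cluster 6 called 3. Same-numbered mice deviated together with correlations of 0.516, 0.373 and -0.146, and stress mouse 3 did not correlate best with its own number, so the numbers were not taken as pairs. With the block, an exact sign-flip permutation test gave p = 0.25 for the share (the smallest 3 pairs allow) and 0.5 for median UMIs. In the edgeR fits with the block, Fos passed for stress (-0.64) and for the difference (0.67).

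The share difference of 1.32 points turned to -0.983 as a share of all cells, and ran from -0.584 to 2.74 with 1 mouse left out. The median UMI difference of 3895 ran from 1894 to 6368, and the immediate-early log2 difference of 0.06 from -0.085 to 0.16, with the sign turned without control mouse 2 (-0.017) or stress mouse 3. The mean immediate-early ratio to other tumor cells ran from 0.94 to 1.05 with 1 mouse left out, an alternative chosen after seeing the data. Among single genes, the change of Fosb (-0.02) ran from -0.20 to 0.18 with 1 mouse left out, and turned without control mouse 3 (0.01) or stress mouse 2 (0.18). The difference for Ogn (-0.08) turned to 0.11 against cluster 3, 1.18 against cluster 6, 0.08 without control mouse 2 and 0.12 without stress mouse 3, and ran from -0.70 to 0.12 with 1 mouse left out. The difference for Mt4 (0.12) ran from -0.070 (without control mouse 2) to 0.43. The other named changes in cluster 5 and differences of changes kept their sign in the alternatives run, which were not run for changes in other tumor cells. With 3 mice a group, small changes could not be detected, and counting intervals were not used because the spread between mice was larger.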

Other observations

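Control mouse 2 stood apart from the other control mice within cluster 5. It had fewer of its tumor cells in the cluster (7.51% against 14.2% and 12.3%), lower Hspa1a (49.0 CPM against 312 and 240 CPM) and S100a4 (251 against 860 and 791 CPM), and higher Birc5 (99.5 against 28.8 and 30.0 CPM) and Pclaf (61.3 against 12.0 and 15.8 CPM). Ier3, an immediate-early survival gene, stood at 656 CPM in this mouse against 218 and 273 CPM in the other controls, and at 454, 766 and 819 CPM in stress mice. Across genes, the deviations of control mouse 2 from its group mean correlated with those of stress mouse 1 at -0.579, and those of control mice 1 and 3 at 0.516 and 0.400. Deviations within a group cancel for each gene, so these opposite signs are partly built in.

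Genes of G2 and mitosis were lower in stress mice among other tumor cells, with 13 of 16 past the threshold (edgeR), all lower, against 9.6% of all genes tested there, and a median log2 fold change of -0.58. The pooled cells were not made up alike in both groups, as cluster 14, with an Mki67 UMI in 82.9% of its cells, held 7.33%, 7.49% and 7.30% of tumor cells in control and 4.03%, 3.75% and 3.76% in stress mice. Its part in these changes was not tested. In cluster 5, where they were low in both groups, none of the 16 passed by edgeR, where 2.05% of all genes passed, and DESeq2 called 0. At an unadjusted p under 0.05 there was 1, against 22.4% of all genes, and the median log2 fold change was -0.10. The difference was positive for 16 of 16 genes, with a median of 0.60 against -0.02 over all genes, and none passed in edgeR (6 at an unadjusted p under 0.05, against 4.31% of all genes higher). Cells were placed in cluster 5 by their expression, and these genes were low there, so that selection cannot be told apart from a smaller stress change.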
